A study of Mus musculus with 10 samples.

Results

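The genes described here are 9 receptors for hormones and growth factors, Esr1, Pgr, Prlr, Egfr, Erbb2, Erbb3, Met, Mst1r and Axl. They were chosen by gene name and were matched to 9 of the 21959 genes of the expression table. The line 4T1, derived from a mammary carcinoma of the mouse and widely taken to represent triple-negative disease, had been placed under the abdominal skin of female BALB/c mice aged 5 to 6 weeks. For 21 days, mice of group E (exercise) could run on wheels at will, while those of group NE (non-exercise) were left without intervention. RNA of 5 tumors per group was sequenced, with 1 library per mouse, so that p-values measure the spread between these mice.

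Estrogen and progesterone receptors are transcription factors that are switched on by steroid hormones, and the prolactin receptor signals through the Jak2 and Stat5 proteins in milk-forming epithelium. Receptor tyrosine kinases of the ErbB, Met and TAM families sit in the cell membrane, bind protein ligands outside the cell and pass the signal to the Ras and ERK cascade and to other routes. Breast tumors are called triple-negative when estrogen receptor, progesterone receptor and amplified Erbb2 are not found, a test made on protein and DNA, while RNA levels are given here.

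The total count of a library was 15045613 to 20646763 in E and 18706032 to 23092251 in NE (exact two-sided permutation p = 0.0317). Levels are given as FPKM, the read count of a gene scaled by its length and by the total count, so that genes of unlike length can be set side by side. For the 9 receptors this length was that of all annotated exons. It was 13661 bases for Esr1 and 15339 for Prlr, against 6339 and 9900 in their longest coding transcripts. For Erbb2 it was 5210 against 5012. Where a tumor's transcripts lack some of these exons, FPKM is too low, so the levels of genes relative to each other depend on this length. In a bulk tumor, fewer cells of a type and less RNA per cell cannot be told apart. Some libraries stood apart in the markers of other cell types. The 12 skeletal muscle markers summed to 27531 CPM (reads scaled by the total count alone) in NE4 and to 6.50 CPM in NE1, against 128 to 4239 CPM in the other tumors, with Acta1 as the most abundant. The 10 fibroblast markers, led by Col3a1, summed to 16574 CPM in E5 and to 1069 CPM in NE1. The member results were therefore also computed without NE1, NE4 and E5, an alternative chosen after seeing the data.

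The labelled tissue, mammary cancer, was compared with the markers of mammary epithelium. Of 10 luminal markers, 6 had reads in all tumors, and Krt19, a keratin, was the most abundant with a mean of 7.92 FPKM. Krt8 and Krt18, the keratin pair of luminal cells, were low, with means of 0.226 and 0.431 FPKM. Of 10 markers of hormone-sensing or secretory epithelium, 4 had reads in all tumors, Ly6a (941 FPKM), Kit (2.0 FPKM), Csn3 (1.19 FPKM) and Foxa1 (0.120 FPKM), while Elf5, Csn2 and Wap had 0 reads in every tumor. Both lists were thus detected in part, and bulk RNA does not show which cells held these reads.

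The 9 receptors spanned a wide range of levels. Averaged over the 10 tumors, Axl had 134 ± 14.9 FPKM, Met 18.3 ± 3.34, Erbb2 6.36 ± 1.02, Egfr 4.14 ± 0.617, Erbb3 3.78 ± 0.385, Esr1 1.26 ± 0.179, Mst1r 0.536 ± 0.307, Prlr 0.0420 ± 0.0225 and Pgr 0.00227 ± 0.00535 (SD, n = 10). Each gene was above the next one in all 10 tumors, except that Egfr was above Erbb3 in 7 of 10 and that Prlr and Pgr could not be ordered in E1, where Prlr had 1 read (0.00316 FPKM) and Pgr had 0 reads, which allows up to 0.0170 FPKM. Axl exceeded 98.8% of all genes in mean FPKM, Met 86.5%, Erbb2 69.1% and Esr1 50.0%. These shares are over all 21959 genes, of which 4034 had 0 reads in every tumor and 11335 had a mean of at least 1 FPKM.

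**Figure D1:**
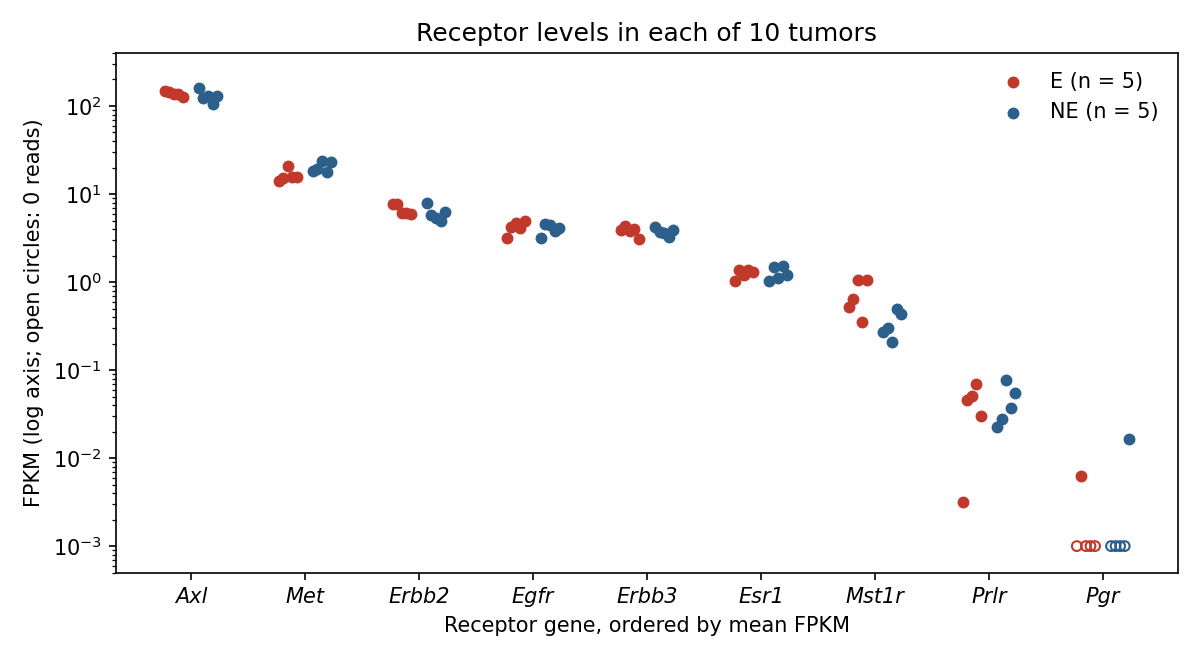
FPKM of the 9 receptor genes (log axis) in each tumor of E and NE, 5 per group, with genes ordered by mean FPKM and open circles at the bottom for tumors with 0 reads. Axl lies highest with a mean of 134 FPKM, and Pgr has reads in 2 of 10 tumors.

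In the comparison of E with NE, which asks whether exercise was accompanied by other receptor levels, differential expression was tested with edgeR's quasi-likelihood test over 13517 genes that passed a filter on low counts. With calls set at an FDR (Benjamini-Hochberg adjusted p) of 0.05 or below and a minimum fold change of 2, 0 of the 8 tested receptors were called, as were 0.0% of all genes tested. The smallest FDR of any gene was 0.897. At an unadjusted p of at most 0.05, edgeR gave 657 genes, DESeq2 800 and limma-trend 644. By edgeR, 2 of the 8 tested receptors were among them, Met and Mst1r, against 4.86% of all genes tested. Mst1r was 1 of the genes higher in E (2.57% of those tested) and Met 1 of those lower in E (2.29%). The groups overlapped for each of the 8 tested receptors, while 0.725% of all genes tested had groups that did not overlap. Pgr did not pass the filter on low counts.

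Esr1 encodes estrogen receptor alpha. It had 1.03, 1.38, 1.197, 1.37 and 1.28 FPKM in E1 to E5 and 1.03, 1.49, 1.11, 1.54 and 1.205 FPKM in NE1 to NE5. The groups overlapped throughout, with the lowest values in E1 and NE1 and the highest in NE4. The log2 fold change of E against NE was -0.06 ± 0.14 (SE, edgeR FDR = 0.951), and its sign turned without E1 (0.01) or NE4 (0.03). Esr1 was covered by 264 to 482 reads per tumor.

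Pgr encodes the progesterone receptor. It had 1 read in E2, 3 reads in NE5 and 0 reads in the other 8 tumors. A count of 0 allows up to 3 reads, which in the shallowest library, E5, is 0.0233 FPKM, so that a difference between the groups was not detectable at this depth. Such limits and the intervals given here cover counting error only.

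Prlr encodes the prolactin receptor. It was covered by 1 read in E1 and 27 reads in NE3, the lowest and highest counts of the 10 tumors. It had 0.00316, 0.0455, 0.0506, 0.0703 and 0.0303 FPKM in E1 to E5 and 0.0226, 0.0279, 0.0775, 0.0369 and 0.0549 FPKM in NE1 to NE5. The groups overlapped, and the log2 fold change was -0.17 ± 0.58 (SE, edgeR FDR = 0.973). The sign turned without E1 (0.14) or NE3 (0.13).

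Of 17 other hormone receptors, 14 were tested and 0 had an unadjusted p of at most 0.05, against 4.86% of all genes tested, with a median log2 fold change of -0.04 against -0.01 for all genes tested. The most abundant were Rarg (26.7 FPKM) and Nr3c1 (17.2 FPKM), receptors for retinoic acid and glucocorticoids, and Rxrb (13.7 FPKM), a partner of nuclear receptors. Esr2, estrogen receptor beta, had a mean of 0.366 FPKM. In the estrogen and progesterone axis, 21 of 22 listed genes were in the table and 16 were tested, of which 0 were higher and 1 was lower in E at an unadjusted p of at most 0.05, against 2.57% and 2.29% of all genes tested. In this list 11 of 16 had a positive log2 fold change, with a median of 0.06. The lower gene was Hsd17b1, an enzyme that makes estradiol from estrone, with 0.306 ± 0.133 FPKM in E and 0.641 ± 0.239 FPKM in NE (SD, n = 5 each). Its log2 fold change was -1.11 ± 0.38 (SE, edgeR FDR = 0.897), and its groups did not overlap in CPM scaled with TMM factors but did in FPKM. Greb1, an estrogen target in breast cells, had a mean of 0.0152 FPKM, and Cyp19a1, the aromatase, had 0 reads. Xbp1, Ccnd1 and Ctsd were the most abundant of this list, with means of 88.3, 85.6 and 83.4 FPKM.

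Of 16 genes of the prolactin and growth hormone axis, 9 were tested, 1 was higher and 0 were lower in E at an unadjusted p of at most 0.05, against 2.57% and 2.29% of all genes tested, with a median log2 fold change of -0.04. Socs3, an inhibitor of cytokine receptor signaling, had 46.9 ± 5.49 FPKM in E and 39.0 ± 2.70 FPKM in NE (SD, n = 5 each), a log2 fold change of 0.24 ± 0.08 (SE, edgeR FDR = 0.897). It was also the most abundant gene of the list, followed by Jak2 (29.7 FPKM) and Stat5b (14.1 FPKM). Prl itself and the milk genes Csn1s1, Csn1s2a, Csn2 and Wap had 0 reads in every tumor. Of the other milk genes on the list, Csn3, kappa-casein, had 33 to 171 reads per tumor and a log2 fold change of -0.52 ± 0.25 (SE, edgeR FDR = 0.897), and Lalba had 5 reads in all, found in 4 tumors of E.

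Erbb2 encodes the ErbB receptor without a known ligand. It had 7.62, 7.68, 6.13, 6.05 and 5.87 FPKM in E1 to E5 and 7.88, 5.85, 5.41, 4.90 and 6.21 FPKM in NE1 to NE5. NE1, E2 and E1 were highest and NE4 was lowest, and the groups overlapped. The log2 fold change was 0.11 ± 0.13 (SE, edgeR FDR = 0.910).

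Egfr encodes the receptor for epidermal growth factor. It had 3.16, 4.27, 4.71, 4.12 and 5.00 FPKM in E1 to E5 and 3.17, 4.58, 4.503, 3.81 and 4.06 FPKM in NE1 to NE5. E1 and NE1 were lowest and E5 was highest. The log2 fold change was 0.05 ± 0.14 (SE, edgeR FDR = 0.968). Its sign turned without E3 (-0.0035), E5 (-0.01) or NE1 (-0.04), and without NE1, NE4 and E5 together it was -0.12.

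Erbb3 encodes a receptor that binds neuregulins and has a weak kinase of its own. It had 3.91, 4.31, 3.81, 4.03 and 3.07 FPKM in E1 to E5 and 4.18, 3.70, 3.58, 3.28 and 3.90 FPKM in NE1 to NE5. E5 was lowest and E2 highest, and the groups overlapped. The log2 fold change was 0.01 ± 0.10 (SE, edgeR FDR = 0.995), and its sign turned without E2 (-0.03), E4 (-0.01), NE3 (-0.0095) or NE4 (-0.02). Erbb4, the remaining ErbB receptor, had 0 reads in every tumor. In the summed FPKM of the 4 ErbB receptors, Erbb2 made up 44.4% ± 4.39, Egfr 29.2% ± 5.02 and Erbb3 26.5% ± 1.72 (SD, n = 10).

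Of 11 ErbB ligands, 8 were tested and 0 had an unadjusted p of at most 0.05, against 4.86% of all genes tested, with a median log2 fold change of 0.07. Hbegf (9.49 FPKM), Areg (5.67 FPKM), Ereg (2.90 FPKM) and Tgfa (1.59 FPKM), ligands of Egfr, had the highest means. Nrg1, a ligand of Erbb3, had a mean of 0.538 FPKM, Egf 0.274, Btc 0.319, Nrg4 0.213, Nrg2 0.128 and Epgn 0.0399 FPKM, and Nrg3 had 0 reads. Among 12 partners and inhibitors of ErbB receptors, 10 were tested, 1 was higher and 0 were lower in E at an unadjusted p of at most 0.05, against 2.57% and 2.29% of all genes tested, with a median log2 fold change of 0.03. The higher gene was Cblb, a ubiquitin ligase, with a log2 fold change of 0.17 ± 0.07 (SE, edgeR FDR = 0.897). Errfi1, an inhibitor of the Egfr kinase, was the most abundant at 88.5 FPKM, followed by the adapters Grb2 (58.9 FPKM) and Shc1 (40.0 FPKM). The 4 genes of ligand shedding were tested and 0 had an unadjusted p of at most 0.05, with a median log2 fold change of 0.03 and with the proteases Adam10 at 44.5 FPKM and Adam17 at 33.0 FPKM, and Rhbdf1 at 11.1 FPKM.

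Met encodes the receptor for hepatocyte growth factor. It had 14.2, 15.2, 20.7, 15.7 and 15.5 FPKM in E1 to E5 and 18.2, 19.2, 23.8, 17.7 and 22.99 FPKM in NE1 to NE5. E3 was the highest tumor of E and lay above NE1, NE2 and NE4, while the other 4 tumors of E lay below each tumor of NE. The means were 16.3 ± 2.57 FPKM in E and 20.4 ± 2.82 FPKM in NE (SD, n = 5 each). The log2 fold change was -0.35 ± 0.13 (SE, edgeR FDR = 0.897), and the unadjusted p was 0.0176. By the exact two-sided permutation test on log2(FPKM + 1), p was 0.0397. Without NE1, NE4 and E5 the log2 fold change was -0.43 (edgeR FDR = 0.723). Leaving out 1 tumor gave -0.47 without E3 to -0.30 without NE3, and -0.30 without NE5 (edgeR unadjusted p = 0.0456).

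The luminal epithelial markers were set beside Met. Summed over the 10 markers they reached 28.8, 22.9, 27.6, 26.0 and 31.3 CPM in E1 to E5 and 29.5, 26.9, 31.8, 32.1 and 51.9 CPM in NE1 to NE5. NE5 was highest and E2 lowest, and the groups overlapped. Their score, the mean log2(CPM + 1) of the list with CPM scaled by TMM factors, averaged 1.11 ± 0.0845 over the 5 tumors of E and 1.31 ± 0.181 over those of NE (SD; exact two-sided permutation p = 0.0397, not adjusted for the 11 marker scores compared). NE5, the highest, also stood apart in the scores of differentiated keratinocytes (2.65) and of basal or myoepithelial cells (3.65). Leaving out each tumor in turn, chosen after seeing the data, the difference in the luminal score was -0.21 with all tumors and -0.14 without NE5. The exact permutation p was over 0.05 in 6 of 10 cases, namely 0.0714 without NE5, 0.0635 without NE4, 0.0714 without E5 and 0.0952 without E2, E3 or E4. Apart from NE5, the difference in these cases was -0.18 without NE4 or E2, -0.20 without E3 or E4 and -0.21 without E5. Of the 5 luminal markers tested, 2 had a positive log2 fold change, Cdh1 (0.16) and Cldn7 (0.08), and 2, Krt19 (-0.65) and Epcam (-1.01), were lower in E at an unadjusted p of at most 0.05, against 2.29% of all genes tested. Over the 10 tumors, Met and this score had r = 0.52 (permutation p = 0.126, adjusted p = 0.452; rho = 0.39, permutation p = 0.261, adjusted p = 0.835), 0.29 without NE4 and NE5 and 0.15 after subtracting group means. Mst1r and this score had r = -0.22 (permutation p = 0.554, adjusted p = 0.870; rho = -0.30, permutation p = 0.405, adjusted p = 0.843). It was -0.48 without NE4 and NE5 and 0.36 after subtracting group means. The part of epithelial content, or of the lower total counts in E, in the values of Met and Mst1r was not tested.

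Mst1r encodes Ron, the receptor for macrophage-stimulating protein. It had 0.522, 0.643, 1.07, 0.355 and 1.06 FPKM in E1 to E5 and 0.268, 0.299, 0.211, 0.496 and 0.439 FPKM in NE1 to NE5. E3 and E5 were highest, E4 lay below NE4 and NE5, and the values of the other 4 tumors of E lay above those of NE, though for E1 and E2 not beyond counting error in each comparison, as given below. The means were 0.730 ± 0.322 FPKM in E and 0.343 ± 0.120 FPKM in NE (SD, n = 5 each). The log2 fold change was 1.05 ± 0.36 (SE, edgeR FDR = 0.897), and the unadjusted p was 0.0154. By the exact two-sided permutation test on log2(FPKM + 1), p was 0.0317.

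The counts behind Mst1r were low, with 54, 60, 110, 33 and 80 reads in E1 to E5 and 31, 28, 24, 57 and 47 reads in NE1 to NE5. In CPM, the 95% Wilson interval was 2.005 to 3.41 in E1, 2.50 to 4.14 in E2, 4.43 to 6.43 in E3, 1.27 to 2.50 in E4 and 4.27 to 6.62 in E5, and 0.946 to 1.91 in NE1, 1.04 to 2.16 in NE2, 0.7098 to 1.57 in NE3, 1.92 to 3.22 in NE4 and 1.65 to 2.92 in NE5. The intervals of E3 and E5 lay above all those of NE, that of E2 overlapped the intervals of NE4 and NE5, that of E1 those of NE2, NE4 and NE5, and that of E4 those of all 5 tumors of NE, so that these could not be told apart by counting error alone. Its coefficient of variation over the 10 tumors, 57.2%, exceeded that of 92.9% of the genes tested. Without NE1, NE4 and E5 the log2 fold change was 1.02 (edgeR FDR = 0.723). On the log2(FPKM + 1) scale, which understates changes of low genes, limma-trend gave 0.35 (FDR = 0.966).

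**Figure D2:**
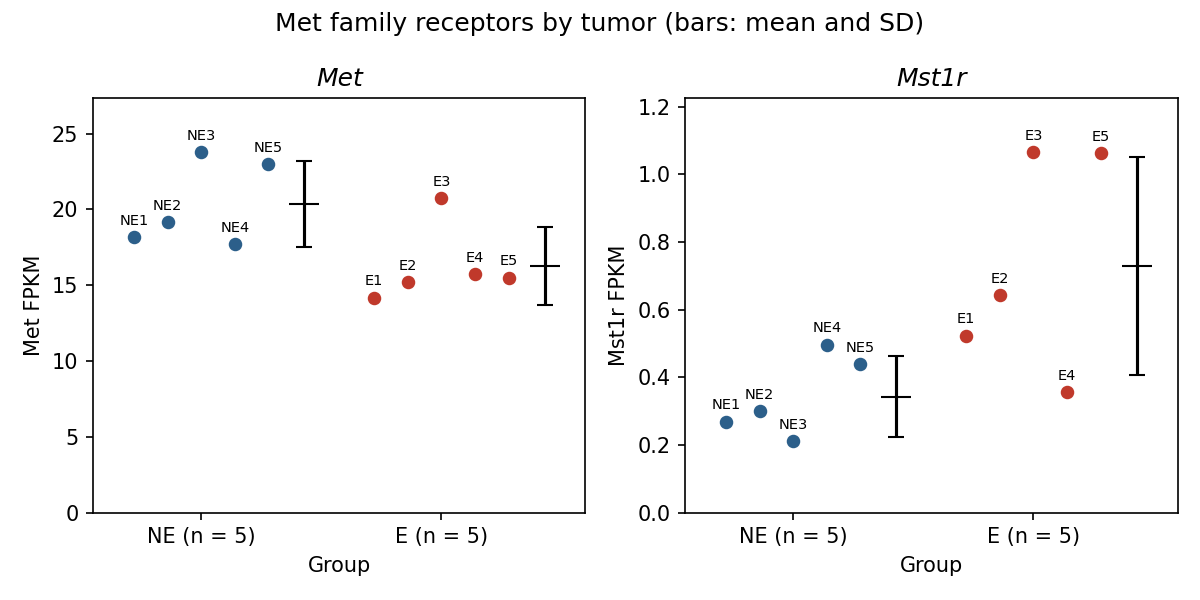
FPKM of Met and Mst1r in each tumor of NE and E, 5 per group, with the tumor's name at each point and the mean and SD as bars. Met lies at 16.3 FPKM in E and 20.4 in NE on average, Mst1r at 0.730 in E and 0.343 in NE, and the groups overlap in both.

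Among 10 genes for the ligands of Met and Ron, their proteases and an adapter, 7 were tested, 1 was higher and 0 were lower in E at an unadjusted p of at most 0.05, against 2.57% and 2.29% of all genes tested, with a median log2 fold change of 0.05. The ligand genes were low, Hgf with a mean of 0.376 FPKM and Mst1 with 0.171 FPKM. The gene higher in E was Plau, the urokinase, with 104 ± 15.1 FPKM in E and 81.5 ± 11.9 FPKM in NE (SD, n = 5 each), a log2 fold change of 0.32 ± 0.12 (SE, edgeR FDR = 0.897). It was also the most abundant of the list, followed by Gab1 (12.9 FPKM), an adapter of Met, and Spint1 (5.03 FPKM), a protease inhibitor.

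Axl encodes a TAM receptor that binds Gas6. It had 149, 146, 137, 135 and 126 FPKM in E1 to E5 and 160, 123, 131, 106 and 131 FPKM in NE1 to NE5. NE1 was highest and NE4 lowest, so that the range of NE enclosed that of E. The log2 fold change was 0.06 ± 0.09 (SE, edgeR FDR = 0.933). Within the TAM receptors, Axl made up 95.5% ± 1.17 of the summed FPKM, Mertk 3.29% ± 1.11 and Tyro3 1.19% ± 0.168 (SD, n = 10).

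Of 6 genes for TAM ligands, receptors and the enzymes of their vitamin K-dependent modification, 5 were tested and 0 had an unadjusted p of at most 0.05, against 4.86% of all genes tested. Of these 4 had a positive log2 fold change, with a median of 0.13. Pros1, protein S, had a mean of 21.1 FPKM, Ggcx 9.57 FPKM and Gas6 8.87 FPKM. Gas6 ranged from 1.38 FPKM in NE1 to 27.0 FPKM in NE4, the libraries with the lowest and highest muscle marker sums, and the part of muscle in this value was not tested.

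Over 58 receptor tyrosine kinases, 6 of them among the 9 receptors, Axl took 31.8% ± 2.29 of the summed FPKM (SD, n = 10), between 28.2% and 35.7% in single tumors. Met took 4.36% ± 0.878 and ranked 8. Of the 52 other receptor tyrosine kinases, 38 were tested, 2 were higher and 1 was lower in E at an unadjusted p of at most 0.05, against 2.57% and 2.29% of all genes tested, with a median log2 fold change of 0.05. The 10 most abundant of them were Fgfr1 (37.6 FPKM), Csf1r (35.8), Ddr2 (35.8), Ryk (23.4), Styk1 (22.1), Epha2 (19.9), Igf1r (9.73), Ephb4 (9.23), Pdgfra (7.53) and Insr (7.40). Ptk7 and Ror2, both linked to Wnt signaling, had log2 fold changes of 0.58 ± 0.21 and 0.59 ± 0.21, and Lmtk3 had -0.73 ± 0.32 (SE, edgeR FDR = 0.897 for each).

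**Figure D3:**
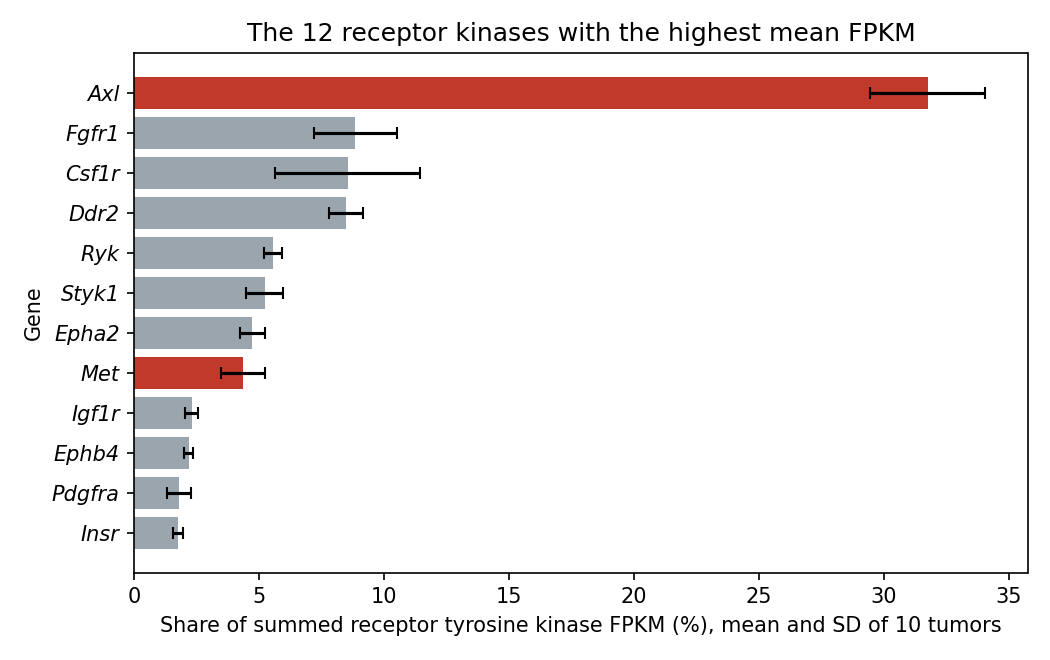
Share (%) of the summed FPKM of 58 receptor tyrosine kinases taken by each of the 12 with the highest mean FPKM, as mean (bar) and SD (line) over 10 tumors, with Axl and Met in red. Axl takes 31.8% and the next gene, Fgfr1, 8.85%.

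Genes that are switched on by ERK, a route shared by these kinases, were also counted. All 14 were tested, 4 were higher and 0 were lower in E at an unadjusted p of at most 0.05, against 2.57% and 2.29% of all genes tested, and the median log2 fold change was 0.18 against -0.01 for all genes tested. Spry1 (0.35 ± 0.15), Spry4 (0.29 ± 0.11), Phlda1 (0.23 ± 0.09) and Egr1 (0.61 ± 0.27) were the genes with a higher level (log2 fold change ± SE, edgeR FDR = 0.897 for each). Dusp6, Spred1 and Etv4 were the most abundant, at 120, 41.2 and 38.1 FPKM. Markers of other cells were set beside these after their values were seen. Of 7 neutrophil markers tested, 7 had a positive log2 fold change (median 1.25) and 3 were higher at an unadjusted p of at most 0.05. Of 11 macrophage or monocyte markers, led by Lyz2, 10 were positive (median 0.13) and 1 was higher by that rule. Of 10 fibroblast markers, 10 were positive (median 0.60) and 0 were higher. In the other direction, 0 of 11 skeletal muscle markers (median -2.36) and 0 of 7 adipocyte markers (median -1.37) were positive, and 0 were lower by that rule. NE4 was highest in both, with sums of 27531 and 196 CPM, against 6.50 to 1652 and 13.6 to 34.4 CPM in the other tumors of NE and 300 to 4239 and 21.3 to 55.9 CPM in E. Of 3 differentiated keratinocyte markers tested, 0 were positive (median -1.21) and 1 was lower by that rule, with NE5 apart in their score (2.65). Among the 5 luminal markers tested (median -0.32), 2 were lower, as given above. Of the remaining lists, 5 of 10 endothelial markers (median -8.2e-05) and 5 of 10 T and NK cell markers (median -0.0014) were positive. So were 2 of 4 basal or myoepithelial markers (median -0.13) and 3 of 4 of hormone-sensing or secretory epithelium (median 0.11). In these lists 0 were higher or lower by that rule. Of all 13517 genes tested, 6221 were positive. The 10 neutrophil markers, led by Mmp9, summed to 165, 164, 384, 101 and 569 CPM in E1 to E5 and 97.0, 121, 135, 79.7 and 142 CPM in NE1 to NE5. By these sums E5 and E3 were highest, and the groups overlapped. By the neutrophil score, E5 was highest (4.05) and NE4 next (2.64), while E3 was the lowest of E (1.91). The other tumors of E reached at most 2.21. Comparing the scores between the groups gave an exact permutation p of 0.563 for neutrophils, 0.540 for macrophages or monocytes, 0.349 for fibroblasts, 0.873 for skeletal muscle (mean score 5.16 in E and 4.89 in NE) and 0.698 for adipocytes. The part of these cells in the ERK genes was not tested.

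Relations between receptors were computed over the 10 tumors for the 7 receptors with a mean of at least 1 CPM, on log2(CPM + 1) with CPM scaled by TMM factors, which gave 21 pairs. Erbb2 and Axl varied together (r = 0.89, permutation p = 0.000480, adjusted p = 0.0101; rho = 0.93, permutation p = 0.000420, adjusted p = 0.00882). Without the tumors farthest from the median of Erbb2, E1 and NE1, r was 0.79, and after subtracting group means it was 0.88. Without NE1 or NE4 r was 0.85 or 0.87, with an adjusted p of 0.0699 or 0.0502. In CPM without TMM r was 0.91 (permutation p = 0.000300, adjusted p = 0.00630). The next pair by r was negative, Esr1 with Axl, r = -0.80 (permutation p = 0.00523, adjusted p = 0.0549; rho = -0.68, permutation p = 0.0348, adjusted p = 0.183), -0.54 without NE1 and NE4, the tumors farthest from the median of Esr1, and -0.81 after subtracting group means. By rho, 3 of the 21 pairs had an adjusted p of at most 0.05, and by r this was 1 pair. Those that passed by rho alone were Erbb2 with Erbb3, r = 0.67 (permutation p = 0.0283, adjusted p = 0.148; rho = 0.82, permutation p = 0.00610, adjusted p = 0.0427), and Erbb3 with Axl, r = 0.69 (permutation p = 0.0294, adjusted p = 0.148; rho = 0.82, permutation p = 0.00557, adjusted p = 0.0427). Without the tumors farthest from the median of the first gene, r was 0.68 for the former (E1 and NE1) and 0.60 for the latter (E5 and NE4), and after subtracting group means it was 0.70 and 0.71. Of the 77 relations of receptors with marker scores, 0 had an adjusted p of at most 0.05 by r or by rho. The smallest permutation p of r was that of Erbb3 with the neutrophil score, r = -0.87 (permutation p = 0.00527, adjusted p = 0.406; rho = -0.53, permutation p = 0.124, adjusted p = 0.732). Without E5 and NE1, the tumors farthest from the median of the score, r was -0.47, and after subtracting group means it was -0.91. Of these relations 8 had an unadjusted permutation p of at most 0.05 by r, 7 of them negative, and 1 by rho. The positive one was Esr1 with adipocytes, r = 0.68 (permutation p = 0.0240, adjusted p = 0.421), with rho = 0.55 (permutation p = 0.105, adjusted p = 0.732). Its r was 0.34 without E2 and NE4 and 0.67 after subtracting group means. With skeletal muscle, Esr1 had r = 0.62 (permutation p = 0.0527, adjusted p = 0.421), and -0.03 without NE1 and NE4. The part of these cells in the level of Esr1 was not tested. Erbb2 and Axl, the pair that varied together, both had negative r with scores of other cells, given after their values were seen. With fibroblasts, Erbb2 had r = -0.54 (permutation p = 0.105, adjusted p = 0.426; rho = -0.54, permutation p = 0.115, adjusted p = 0.732), -0.24 without E5 and NE1 and -0.74 after subtracting group means, and Axl had r = -0.67 (permutation p = 0.0350, adjusted p = 0.421; rho = -0.60, permutation p = 0.0732, adjusted p = 0.732), -0.41 without E5 and NE1 and -0.86 after subtracting group means. With macrophages or monocytes, Erbb2 had r = -0.52 (permutation p = 0.121, adjusted p = 0.452; rho = -0.50, permutation p = 0.143, adjusted p = 0.732), -0.08 without E5 and NE1 and -0.66 after subtracting group means, and Axl had r = -0.67 (permutation p = 0.0395, adjusted p = 0.421; rho = -0.56, permutation p = 0.0952, adjusted p = 0.732), -0.33 without E5 and NE1 and -0.80 after subtracting group means. With T and NK cells, Erbb2 had r = -0.64 (permutation p = 0.0423, adjusted p = 0.421; rho = -0.64, permutation p = 0.0548, adjusted p = 0.732), -0.24 without NE1 and NE4 and -0.70 after subtracting group means, and Axl had r = -0.63 (permutation p = 0.0484, adjusted p = 0.421; rho = -0.52, permutation p = 0.134, adjusted p = 0.732), 0.07 without NE1 and NE4 and -0.68 after subtracting group means. With neutrophils, r was -0.46 for Erbb2 and -0.57 for Axl, and -0.46 and -0.64 without E5 and NE1. The 1 relation by rho counted above was Axl with neutrophils (rho = -0.70, permutation p = 0.0302, adjusted p = 0.732). With skeletal muscle, r was -0.45 for Erbb2 and -0.64 for Axl, and 0.38 and 0.31 without NE1 and NE4. For hormone-sensing or secretory epithelium, Erbb2 had -0.59 and Axl -0.63, and -0.08 and 0.26 without NE1 and NE4. For differentiated keratinocytes, Erbb2 had 0.03 and Axl 0.01, and 0.51 and 0.33 without E3 and NE5. The part of these cells in the relation of Erbb2 with Axl was not tested.

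The genes most like each receptor over the 10 tumors were found by Pearson's r on the same scale among the other 13516 genes tested, as a description. They were Abca8b (0.94), Rnf113a2 (0.90) and Alg14 (0.90) for Esr1, Dkk2 (0.95), Atad2b (0.95) and Ppp2r3c (0.95) for Egfr, and Fbxo46 (0.95), Rnf44 (0.95) and Pcnx3 (0.94) for Erbb2. For Erbb3 they were Aif1l (0.94), Gins4 (0.91) and Pnma2 (0.90). For Met they were Tex10 (0.97), Ddx43 (0.94) and Ncoa4 (0.94), for Mst1r Nlrx1 (0.95), Ncoa1 (0.89) and Fez1 (0.89), and for Axl Clasrp (0.95), Inf2 (0.95) and Rnf25 (0.95).

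In the mouse annotation (GRCm38), Met lies on the forward strand of chromosome 6 from 17463800 to 17573980, Mst1r on the forward strand of chromosome 9 from 107906873 to 107920383, and Axl on chromosome 7, on the reverse strand, from 25757273 to 25788705. Exons of Erbb2 share 9 bases with Mien1 on the opposite strand, and exons of Prlr share 203 bases with Gm21973 on the same strand, so that reads there could not be assigned by position alone. The exons of the other 7 receptors overlapped no other annotated gene.

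Promoter windows of 300 bases around the transcription start (RefSeq, GRCm38.p6) were matched for 8 of the 9 receptors, and Erbb3 had no entry. The windows of Erbb2 and Axl are printed since this pair passed the adjustment by both r and rho. Capitals mark GC boxes (GGGCGG on either strand), found in 35.7% of 32851 promoters, and AP-1 sites (TGANTCA), found in 7.81%. Axl has 2 GC boxes, Erbb2 has 0, and neither has an AP-1 site. Such a match is a description of letters in the window.
Erbb2 (chr11:98412234-98412533, forward strand): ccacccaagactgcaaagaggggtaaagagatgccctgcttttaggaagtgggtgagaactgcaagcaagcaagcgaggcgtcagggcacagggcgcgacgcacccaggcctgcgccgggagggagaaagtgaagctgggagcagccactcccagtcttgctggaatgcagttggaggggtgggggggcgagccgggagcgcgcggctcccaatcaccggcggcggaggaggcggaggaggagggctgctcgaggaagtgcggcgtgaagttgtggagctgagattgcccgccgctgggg
Axl (chr7:25788684-25788983, reverse strand): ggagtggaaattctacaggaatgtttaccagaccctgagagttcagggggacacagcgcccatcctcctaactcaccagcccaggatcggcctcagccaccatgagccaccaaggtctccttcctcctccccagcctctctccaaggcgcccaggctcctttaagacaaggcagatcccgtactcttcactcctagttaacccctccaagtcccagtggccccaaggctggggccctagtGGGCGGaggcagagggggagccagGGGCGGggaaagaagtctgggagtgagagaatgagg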

How the data were processed

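Libraries of 10 tumors were grouped by their labels. By the study's methods, the authors aligned reads with Hisat2 and computed FPKM with Stringtie; the methods name a rat assembly as reference although the gene IDs are those of mouse, and the mouse build behind the coordinates of the table is not stated in the sources used here. The authors deposited whole-number read counts per gene, and how these were made, or whether strand was used, is not stated. The deposited FPKM equal the counts scaled by gene length and total count.

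From the counts, E was compared with NE by edgeR 4.0.16 in R 4.3.3 (TMM, filterByExpr, quasi-likelihood test). Alternatives were DESeq2 1.42.0, limma 3.58.1 (trend, pseudocount 1), other scalings and filters, the replicate block and leaving out each tumor. Permutation tests used all 252 assignments of 5 and 5 tumors, or 100000 permutations for relations, with Python 3.11.15. Where a symbol had several gene IDs, the one with more reads was used. Named genes were the receptors, the ligands, genes of each list with an unadjusted p of at most 0.05, the 3 most abundant of each list, the 10 most abundant other receptor kinases and the 3 genes most like each receptor; Esr2, Greb1, Cyp19a1, the milk genes and the marker genes were named beside this rule, after their values were seen. The members and lists were chosen with earlier results of these data known.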

Additional observations from a re-analysis of the deposited data

Results flagged for a closer look

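Values were looked at again where 1 tumor lay far from the other 4 of its group, its gap to the nearest being over 0.71 of the range. This was tested in 68 groups of 5, and 11 were found; chance flags about 1 in 20 groups. Among the receptors, Met was 20.7 FPKM in E3 against 14.2 to 15.7 in the other tumors of E. Pgr was 0.00628 FPKM in E2 and 0.0164 FPKM in NE5, with 0 in the others of each group, which are 1 and 3 reads.

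Among ligands, Egf was 0.700 FPKM in NE4 (others of NE 0.173 to 0.226), Gas6 27.0 FPKM in NE4 (1.38 to 6.04), Mst1 0.389 FPKM in NE3 (0.115 to 0.173) and Nrg1 1.07 FPKM in E5 (others of E 0.417 to 0.543). Among marker scores, NE5 stood at 3.65 for basal or myoepithelial cells (1.54 to 1.88) and 2.65 for differentiated keratinocytes (0.317 to 0.434), NE1 at 6.02 for macrophages or monocytes (7.23 to 7.61), and E5 at 4.05 for neutrophils (others of E 1.91 to 2.21). Their part in the receptor values was not tested.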

How the results depend on the processing

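Under the 17 alternatives, 0 genes were called and 2 receptors had an unadjusted p of at most 0.05. Met kept its direction (log2 fold change -0.47 to -0.30, FDR at least 0.527), as did Mst1r (0.35 to 1.24, FDR at least 0.537), Erbb2 and Axl. For Mst1r, 0.35 was the limma-trend value on the log2(FPKM + 1) scale. The other alternatives gave 0.86 (without E3) to 1.24 (without NE4). Erbb2 was 0.06 without NE4 and 0.21 without NE1, and Axl 0.0095 without NE4 and 0.13 without NE1. Prlr could not be fitted with at least 10 counts in every tumor. Pgr, with 4 reads in all, entered only the fit without a filter on low counts, and its value there is not given. Directions turned for receptors near 0. Leaving out each tumor in turn, Esr1 ranged from -0.14 to 0.0348, Prlr from -0.47 to 0.14, Egfr from -0.0375 to 0.14 and Erbb3 from -0.0328 to 0.0800. The turned values were 0.01 without E1 and 0.0348 without NE4 for Esr1, 0.14 without E1 and 0.13 without NE3 for Prlr, -0.0035 without E3, -0.01 without E5 and -0.0375 without NE1 for Egfr, and -0.0328 without E2, -0.01 without E4, -0.0095 without NE3 and -0.02 without NE4 for Erbb3. Without NE1, NE4 and E5 together, chosen after seeing the data, Egfr was -0.12, Erbb2 0.22 and Axl 0.13 (for Erbb2 and Axl, edgeR unadjusted p = 0.0718 and 0.0546, FDR = 0.723 and 0.723). In the same fit Prlr was -0.37, Erbb3 0.09 and Esr1 -0.04. The difference in the luminal score was -0.25 without NE1 to -0.14 without NE5. The causes were not tested.

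Genes at an unadjusted p of at most 0.05 ranged from 372 without E5 to 1251 without NE1 (401 without NE3). Receptor pairs with an adjusted p of at most 0.05 ranged from 0 to 3 on leaving out a tumor and were 2 after subtracting group means, chosen after seeing the data. As TPM, whose scale differs by construction, the means were 482 for Axl, 65.6 for Met, 22.8 for Erbb2, 14.8 for Egfr, 13.5 for Erbb3, 4.52 for Esr1, 1.93 for Mst1r, 0.150 for Prlr and 0.00816 for Pgr.

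With the replicate block, 714 genes had an unadjusted p of at most 0.05, 0 were called, Met was -0.36 and Mst1r 1.01 (edgeR unadjusted p = 0.00225 and 0.0469, FDR = 0.871 for both). The study speaks of matched pairs, and neither it nor the labels state what was matched or that the numbers mark it. Same-numbered tumors did not all deviate together (r between -0.32 and 0.32, 1 of 5 best with its own number), so the numbers were not used to pair the tumors. Pgr had at most 3 reads and Prlr 1 to 27 reads per tumor.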
